A study of Arabidopsis thaliana with 8 samples.

Results

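ZAT10, CML38 and AT4G28240 are 3 genes of Arabidopsis thaliana tied to touch, wounding and early stress, and each was read by 1 probe set (a group of short probes for 1 transcript) on Affymetrix ATH1 arrays. They were found through the probe-to-gene annotation as probe sets with a single gene, ZAT10 under its other name STZ, and make up 3 of 13286 genes matched to a locus in that way. The genes were chosen by their GA4 minus water differences in earlier work on these same arrays, AT4G28240 because it fell there and ZAT10 and CML38 as the lower genes of a list on touch and wounding. Those differences are therefore given as descriptions without a test. The study asked which genes respond early to gibberellin, using ga1-3, a mutant poor in gibberellin, in the Ler background. Shoots were cut from 8-day-old seedlings 1 h after a spray with 2 µM GA4, a bioactive gibberellin (4 arrays), or with water (4 arrays). All seedlings carried ga1-3, were grown upright in continuous light at 22 °C on medium with 2% sucrose, and were sprayed as whole plants with a fine mister. ga1-3 blocks an early step of gibberellin synthesis, so the comparison adds the hormone to plants that make little of it. Every plant was also wetted by the mist and cut with a blade. No unsprayed or wild-type sample was used here, so the arrays hold no measure of what spraying alone did to these genes.

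Touch, a spray of water droplets and wounding raise cytosolic calcium in plant cells, and many genes for calcium sensors and transcription factors are switched on soon after. Calmodulin-like proteins bind calcium and pass the signal to other proteins. Zinc finger proteins of the ZAT group act in the nucleus, and several of them repress transcription. Gibberellin acts through the GID1 receptors, which trigger the breakdown of DELLA proteins, regulators that also meet stress and jasmonate signalling.

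The arrays were scaled alike, with trimmed mean signals of 500.04 to 500.05, and 13648 of the 22746 non-control probe sets passed the filter on brightness and were tested (mean log2 signal of at least 6.78, or 110 signal units). The arrays fell into 2 sets, replicates 3 and 4 and replicates 1 and 2, each with 2 arrays of either treatment. Deviations from the group means correlated at 0.367 to 0.599 between GA4 and water arrays of different number in the same set, and at −0.601 to −0.518 between sets. Such deviations cancel out within each group, so positive values within sets bring negative ones between sets by construction. For GAPDH the 3′ signal divided by the 5′ signal, a sign of RNA integrity, ranged between 0.958 and 1.14 for replicates 3 and 4 but between 2.13 and 5.43 for replicates 1 and 2. The ubiquitin ratio ranged between 1.21 and 1.39 for replicates 3 and 4 but between 1.66 and 4.17 for replicates 1 and 2, while the actin ratios overlapped (3.03 to 5.63 for replicates 3 and 4, 3.67 to 13.6 for replicates 1 and 2). The labelled tissue could hardly be checked. Of 6 shoot markers only CLV3 had a probe set with a single gene, and of 8 root markers only EXPA7 and EXPA18, and all 3 lay below the filter. GA1, the gene hit in the mutant, had none.

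All 3 genes gave less signal after GA4 than after water in each of the 4 replicate numbers. AT4G28240, whose product is known only as a member of a wound-responsive protein family, had the largest difference of the 3. CML38, a calmodulin-like calcium sensor induced by wounding and low oxygen, came next. ZAT10, a C2H2 zinc finger repressor induced by salt, cold and wounding, had the smallest and most even difference. In bulk shoots, fewer cells that express a gene and less RNA per cell cannot be told apart.

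AT4G28240 (probe set 253812_at) had signals of 845, 892, 2428 and 1645 units on GA4 replicates 1 to 4, against 2181, 2358, 4677 and 4157 units on water replicates 1 to 4. The groups overlapped through 1 array, since GA4 replicate 3 lay above water replicates 1 and 2. Within each number the GA4 array held 38.7%, 37.8%, 51.9% and 39.6% of the water signal. The mean log2 signal was 10.36 ± 0.73 in GA4 and 11.63 ± 0.56 in water (SD, n = 4 each). The difference was −1.26 ± 0.21 log2 units (mean and SD of the 4 numbers), or 2.4-fold lower in GA4. Replicates 1, 2 and 4 lay close together at −1.37, −1.40 and −1.34, and replicate 3 stood at −0.95. Only 0.227% of the tested probe sets had a lower mean difference.

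CML38 (probe set 259879_at) had signals of 167, 81.8, 400 and 394 units on GA4 replicates 1 to 4, against 302, 178, 464 and 577 units on water replicates 1 to 4. GA4 replicate 2 was below the 110 units used as the filter on mean signal, and without detection calls such a low signal may be background, which leaves the size of the replicate 2 difference uncertain. The groups overlapped widely, since GA4 replicates 3 and 4 were above water replicates 1 and 2. The mean log2 signal was 7.75 ± 1.1 in GA4 and 8.44 ± 0.75 in water (SD, n = 4 each). The GA4 array held 55.4%, 46%, 86.2% and 68.2% of the water signal in replicates 1 to 4. The difference averaged −0.68 ± 0.39 log2 units, or 1.61-fold lower in GA4, with replicate 2 lowest at −1.12 and replicate 3 nearest to zero at −0.21. Of the 3 genes it varied most between numbers, and 71.6% of tested probe sets had a smaller SD of their 4 differences.

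ZAT10 (probe set 261648_at) had signals of 669, 606, 1707 and 1349 units on GA4 replicates 1 to 4, against 930, 798, 2290 and 1994 units on water replicates 1 to 4. The groups overlapped, with GA4 replicates 3 and 4 above water replicates 1 and 2. The mean log2 signal was 9.94 ± 0.74 in GA4 and 10.41 ± 0.77 in water (SD, n = 4 each). Within numbers the GA4 signal was 72%, 75.9%, 74.5% and 67.6% of the water signal. The difference was −0.47 ± 0.07 log2 units, or 1.38-fold lower in GA4, and ran only from −0.56 in replicate 4 to −0.40 in replicate 2. Its SD over the 4 numbers was smaller than that of most probe sets: 2.3% of those tested had a smaller one, and the median over all tested was 0.28. The spread of ZAT10 among arrays of 1 treatment (pooled SD 0.75) was thus about as large in GA4 as in water and almost absent from the differences within numbers.

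**Figure D1:**
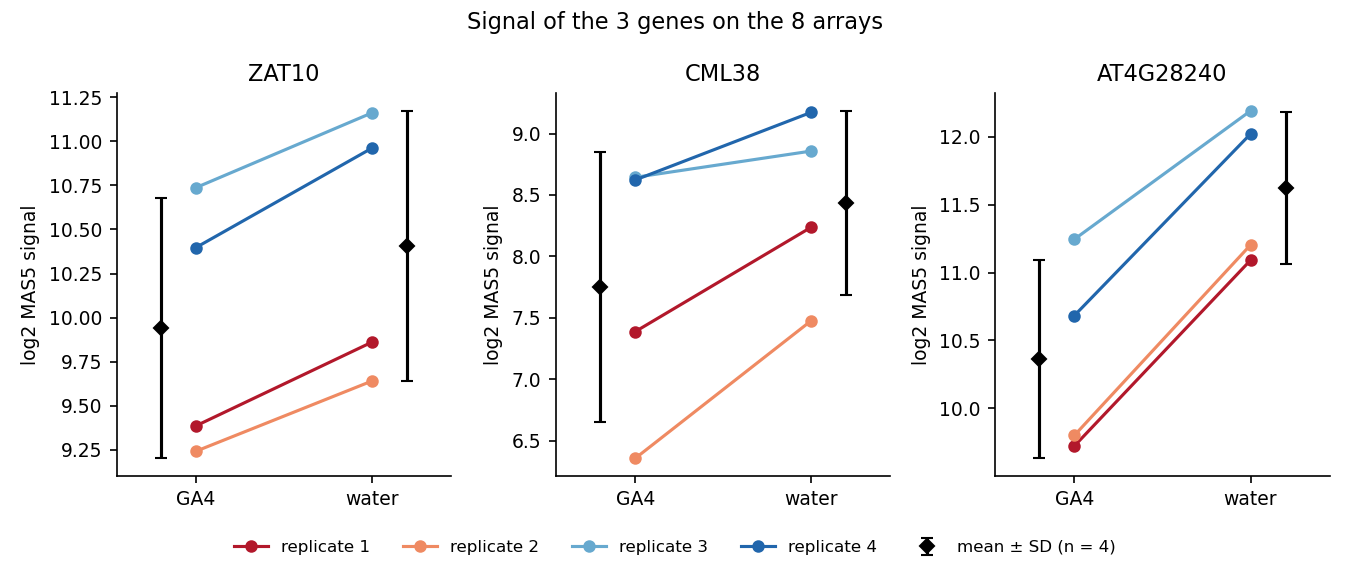
Log2 MAS5 signal of ZAT10, CML38 and AT4G28240 (1 panel each, with its own vertical scale) on the 4 GA4 arrays and the 4 water arrays. Lines join arrays of the same replicate number, and black diamonds with bars are the mean ± SD of each group (n = 4). Every line is lower at its GA4 end, and replicates 3 and 4 lie above replicates 1 and 2 within each treatment.

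Set side by side, the difference of AT4G28240 was the lowest of the 3 in each number. CML38 was lower than ZAT10 in replicates 1 and 2, nearer to zero than ZAT10 in replicate 3 (−0.21 against −0.42), and almost equal to it in replicate 4 (−0.55 against −0.56). Being lower in GA4 in 4 of 4 numbers was the case for 3 of these 3 genes and for 10.0% of the tested probe sets (1368 of 13648). Within each replicate set, GA4 lay below water with no overlap for all 3 genes, which held for 4.57% of the tested probe sets. Over all 8 arrays together it held for none of the 3, and for 1.39% of those tested. Since the genes were chosen by this contrast, these counts describe them and carry no weight as evidence.

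**Figure D2:**
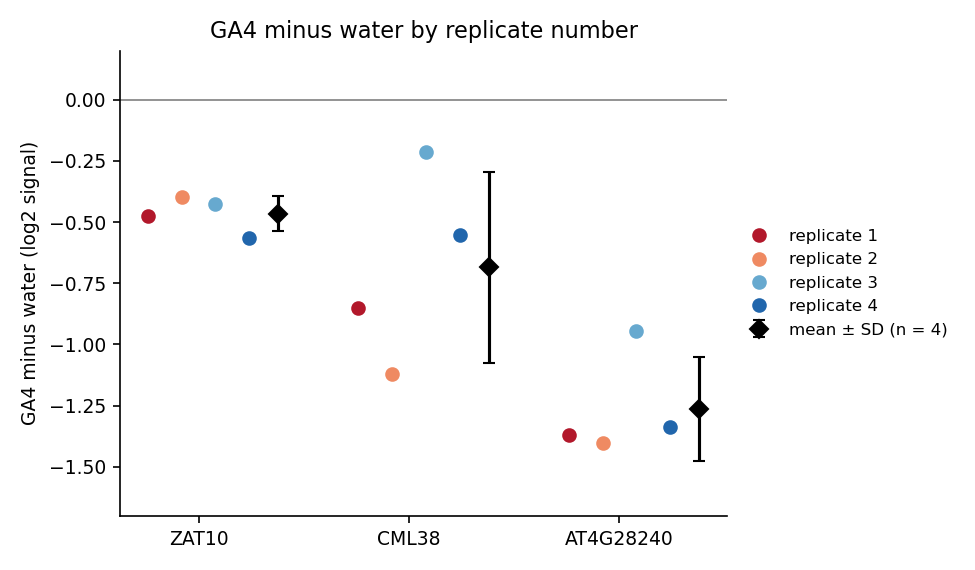
GA4 minus water on the log2 scale for each gene by replicate number (coloured points), with the mean and SD of the 4 differences (black diamonds and bars). ZAT10 clusters between −0.56 and −0.40, CML38 spreads from −1.12 to −0.21, and AT4G28240 lies between −1.40 and −0.95.

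The differences of the 3 genes after GA4 were present in both replicate sets. In replicates 3 and 4 the mean GA4 minus water difference was −1.14 for AT4G28240, −0.38 for CML38 and −0.49 for ZAT10. In replicates 1 and 2 it was −1.39, −0.99 and −0.44 in the same order of genes. Among all tested probe sets, 0.212%, 4.87% and 2.6% had a lower difference than AT4G28240, CML38 and ZAT10 in replicates 3 and 4, and 0.689%, 1.93% and 12.4% in replicates 1 and 2. The change of the GA4 effect between the sets (replicates 3 and 4 minus replicates 1 and 2) was tested by limma over the whole table. This change is orthogonal to the mean GA4 effect. Yet it comes from the same 4 differences by which the genes were chosen, so it is not independent of that choice. It was 0.24 for AT4G28240 (95% interval −0.39 to 0.88, adjusted p = 0.881), 0.60 for CML38 (−0.48 to 1.69, adjusted p = 0.811) and −0.06 for ZAT10 (−0.66 to 0.54, adjusted p = 0.977). No probe set passed this test (0%, 0 of 13648, with 957 at an unadjusted p under 0.05), and the intervals are too wide to show that the effects were alike. The fit had a term for the replicate set but none for the replicate number. Its error therefore includes level differences between numbers of the same set, which widen the intervals where arrays of a number move together.

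The level of all 3 genes moved with the replicate number. The mean level per number was not itself used to choose the genes. Yet over the 13648 tested probe sets, the difference between replicates 3 and 4 and replicates 1 and 2 correlated at −0.28 with the mean GA4 minus water difference. Choosing genes low in GA4 thus favours genes high on replicates 3 and 4. Each was higher on replicates 3 and 4 than on replicates 1 and 2, by 2.43-fold for ZAT10 (1.28 log2 units), 2.75-fold for CML38 (1.46) and 2.12-fold for AT4G28240 (1.08). A moderated F test among the 4 replicate numbers in limma, with treatment in the model, gave an adjusted p of 0.000225 for ZAT10, 0.000806 for CML38 and 0.00063 for AT4G28240. All 3 passed, as did 36.3% of the tested probe sets, so differences among numbers were common on these arrays. The error term of this F test rests partly on the spread of the 4 GA4 minus water differences, by which the genes were chosen. Its p-values are therefore not fully independent of that choice. For ZAT10 and CML38 every array of replicates 3 and 4 was above every array of replicates 1 and 2 whatever the treatment, which was true of 13.7% of the tested probe sets. For AT4G28240 it was not, because GA4 replicate 4 lay below both water arrays of replicates 1 and 2.

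In the deposited values the direction of this set difference was the less common one. Of all tested probe sets 39.3% were higher on replicates 3 and 4, and the median was −0.14 log2 units. After quantile normalization the median was −0.01, so the share of 39.3% depends on the scaling. In the deposited values a larger set difference was found in 2.12% of the tested probe sets for ZAT10, 1.43% for CML38 and 3.22% for AT4G28240. Given the correlation of −0.28 with the contrast that chose the genes, these shares are not independent of that choice. The rise on replicates 3 and 4 was seen in either treatment, at 2.38-fold among GA4 and 2.48-fold among water arrays for ZAT10, 3.39-fold and 2.23-fold for CML38, and 2.3-fold and 1.94-fold for AT4G28240. For ZAT10 it was larger than the GA4 difference of 1.38-fold, and for CML38 than that of 1.61-fold. The GAPDH 3′ to 5′ ratio separated the same arrays, and its part in these levels was not tested. The labels name no dates or batches for the replicate numbers.

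The 3′ to 5′ ratios also differed between the treatments inside replicates 1 and 2, but not in 1 direction for all 3 control transcripts. The GAPDH ratio was 3.5 in GA4 against 2.25 in water in replicate 1, and 5.43 in GA4 against 2.13 in water in replicate 2. The actin ratio was 6.41 in GA4 against 13.6 in water in replicate 1, the opposite direction, and 5.34 in GA4 against 3.67 in water in replicate 2. The ubiquitin ratio was 4.17 in GA4 against 3.6 in water in replicate 1, and 2.53 in GA4 against 1.66 in water in replicate 2. The GAPDH ratio was nearly equal in replicate 3 (0.98 in GA4, 0.958 in water) and in replicate 4 (1.1 in GA4, 1.14 in water). Over the 13648 tested probe sets, the GA4 minus water difference in replicates 1 and 2 correlated with the set difference at −0.37, so that transcripts higher on replicates 3 and 4 tended to be lower in GA4 there. In replicates 3 and 4 alone that correlation was 0.04. These are descriptions across probe sets, which share the same 8 arrays. In each correlation both differences were computed partly from the same arrays, so scatter on those arrays enters both. The part of RNA integrity in the GA4 differences of the 3 genes was not tested.

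**Figure D3:**
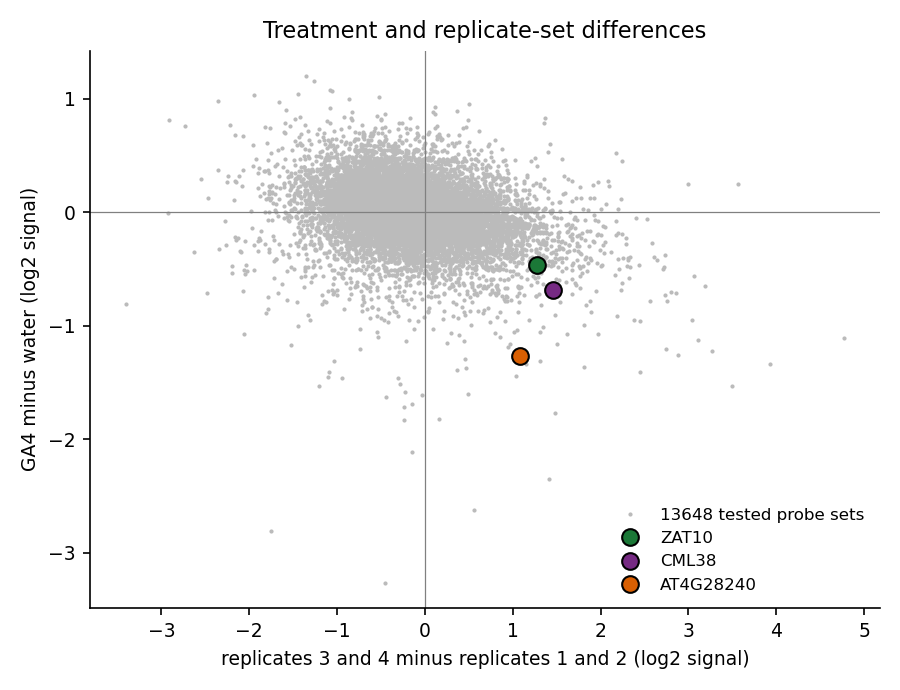
Each grey point is 1 of the 13648 tested probe sets, with the difference between replicates 3 and 4 and replicates 1 and 2 on the horizontal axis and GA4 minus water on the vertical axis (both log2 signal, means over all arrays concerned). ZAT10, CML38 and AT4G28240 lie to the lower right, at set differences of 1.28, 1.46 and 1.08 and treatment differences of −0.47, −0.68 and −1.26.

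The 3 genes also varied together within sets. After the mean of each replicate set was subtracted, the log2 signals of ZAT10 and AT4G28240 correlated at 0.93 over the 8 arrays, those of ZAT10 and CML38 at 0.72, and those of CML38 and AT4G28240 at 0.65. What remains in these values includes the treatment difference, by which the genes were chosen, and the differences between the numbers of 1 set. For CML38 it also includes GA4 replicate 2, whose signal of 81.8 units lay under the filter level, so the correlations of CML38 are uncertain.

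By the same measure, 7336 other tested probe sets with a single gene were searched for the patterns most like each gene. The patterns include the treatment difference, so the closest matches to genes lower in GA4 tend to be lower in GA4 by the way they were found. For AT4G28240 the closest were AT3G55350 (r = 0.986), AT3G52500 (0.970), AT4G39900 (0.968), AT5G52970 (0.966) and AT5G17760 (0.963), with GA4 minus water differences of −1.03, −0.60, −0.44, −0.22 and −1.19. AT3G55350 averaged 6.32 log2 units in GA4, under the filter level, so its size and its likeness to AT4G28240 are uncertain. Of these only AT5G17760 had a set difference near that of AT4G28240, at 0.95, and the other 4 ranged from 0.09 to 0.28. For ZAT10 the closest were AT5G47550, a cystatin (0.981), AT5G05180 (0.965), the WRKY transcription factor ZAP1 (0.962), the glucosyltransferase UGT76E11 (0.960) and AT2G43760 (0.945). Their mean GA4 minus water differences were −0.82, −0.87, −0.51, −0.74 and −0.33. UGT76E11 averaged 6.75 log2 units in GA4, under the filter level, so its size and its likeness to ZAT10 are uncertain. All 5 ran against ZAT10 in the set difference, from −0.72 to −0.27. For CML38 the closest were AT1G64370 (0.978), AT2G24550 (0.969), AT5G42940 (0.968), AT1G74250 (0.967) and AT3G46110 (0.962), with differences of −0.28 to −0.43. Their set differences ran from −0.91 for AT1G74250 to 1.00 for AT3G46110. The likeness of these 5 to CML38 is uncertain, because CML38 was under the filter level on GA4 replicate 2. No gene was among the 5 closest of more than 1 of the 3.

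Other genes of touch, wounding and calcium signalling were taken from 5 lists with 156 loci in all. Of these 48 had a probe set with a single gene in the annotation used here, and 24 of the 48 were bright enough to be tested. Without a block, 0 of the 24 passed the limma fit of GA4 against water in either direction, against 2 of all 13648 tested (0.0147%). In that fit 1 of the 24 was at an unadjusted p under 0.05, against 361 of all 13648. With the replicate number as a block 0 of the 24 passed, against 40 of all tested (0.293%). With this block 6 of the 24 were at an unadjusted p under 0.05, against 1611 of all 13648. The median difference of the 24 was −0.14, against 0.01 for all tested. Lower in GA4 in 4 of 4 numbers were 4 of the 24 (10.0% of all tested), and higher in 4 of 4 were 3 of the 24 (9.64% of all tested).

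The list of touch and early stress genes had 3 of 46 members tested, and none passed. EXO, a secreted protein of brassinosteroid-promoted growth, had log2 signals of 11.01, 10.32, 13.28 and 13.35 on GA4 replicates 1 to 4, against 11.86, 11.54, 13.36 and 13.69 on water replicates 1 to 4. Its difference of −0.62 (block SE 0.17, adjusted p = 0.193 with the block and 1 without, by limma) was −0.22 in replicates 3 and 4 and −1.03 in replicates 1 and 2. Like the 3 genes, EXO was much higher on replicates 3 and 4, by 2.24 log2 units. WRKY6 and WRKY53, transcription factors of senescence and defence, were at −0.28 (block SE 0.20) and 0.27 (block SE 0.22). WRKY53 was at 0.65 and 0.64 in replicates 1 and 2 and at 0.13 and −0.36 in replicates 3 and 4, so its sign was not the same in all numbers. The classical touch genes CML12, CML24 and XTH22 had no probe set with a single gene here and were not analysed.

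ZAT5 was the only other tested member of the ZAT zinc finger list, with 5 more below the filter. It ran opposite to ZAT10. Its log2 signals were 9.33, 9.33, 8.79 and 8.63 on GA4 replicates 1 to 4, against 8.52, 8.99, 8.03 and 7.73 on water replicates 1 to 4. Each GA4 array was above the water array of its number, by 0.81, 0.34, 0.76 and 0.89. The mean difference of 0.70 did not pass by limma (SE 0.29 and adjusted p = 1 without the block, SE 0.14 and adjusted p = 0.079 with it). Its level was also opposite to that of ZAT10 across the sets, lower on replicates 3 and 4 by a difference of −0.75.

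**Figure D4:**
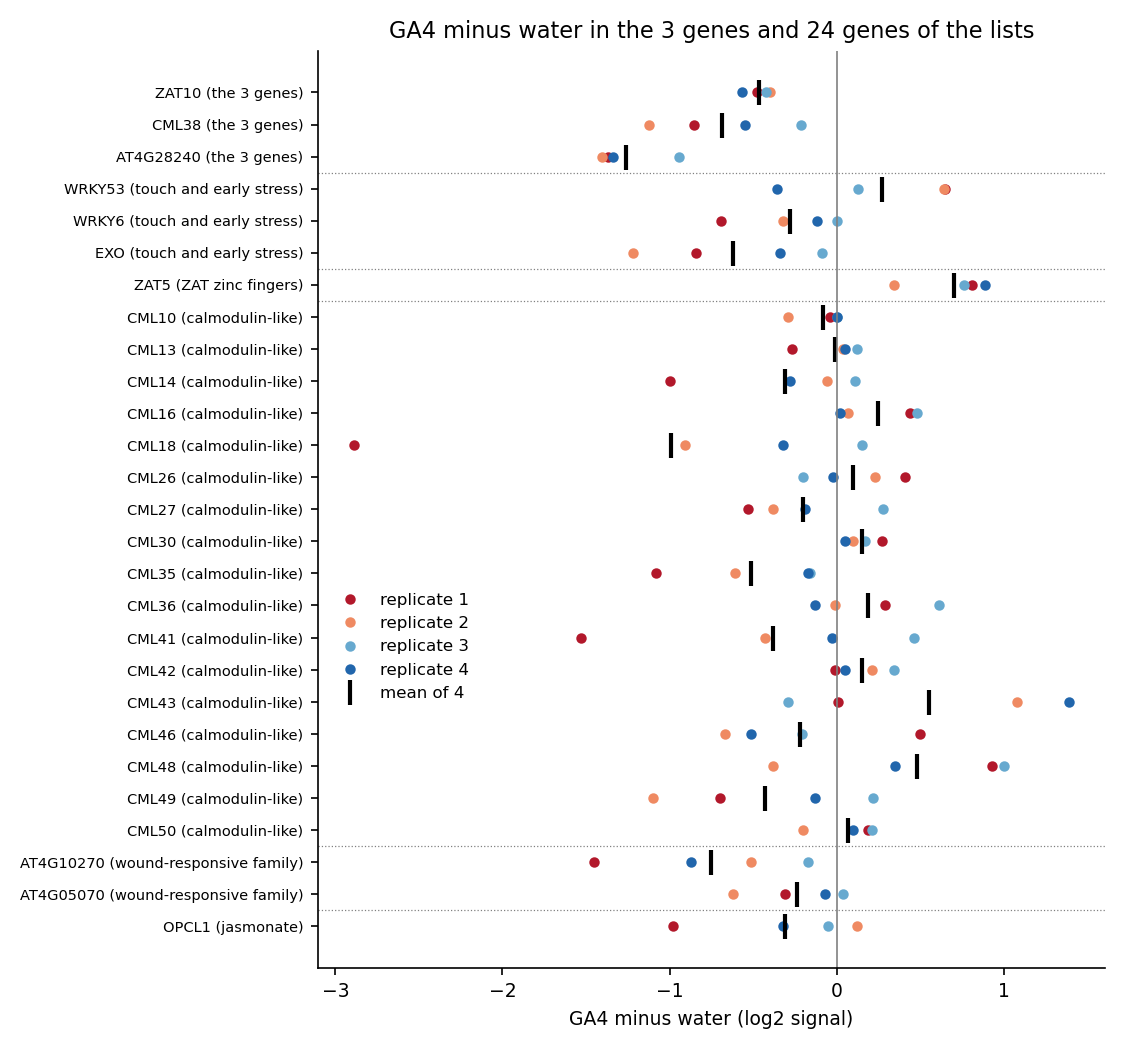
GA4 minus water (log2 signal) of the 3 genes and of the 24 tested genes of the lists, by replicate number (coloured points) and as the mean of 4 (black bars). The means run from −0.99 for CML18 to 0.70 for ZAT5, and none of the 24 passed the test.

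Among the calmodulin-like and calmodulin genes 17 of 56 were tested, none passed, and the median difference was −0.01. CML35 was the only one of the 17 lower in GA4 in 4 of 4 numbers, at −1.08, −0.61, −0.16 and −0.17 (mean −0.51, block SE 0.15, adjusted p = 0.259 with the block by limma). Its log2 signals were 10.30, 10.35, 12.35 and 12.35 on GA4 replicates 1 to 4, against 11.38, 10.96, 12.51 and 12.53 on water replicates 1 to 4, again with replicates 3 and 4 far above. CML16 and CML30 were higher in GA4 in 4 of 4 numbers, by means of 0.25 (block SE 0.14) and 0.15 (block SE 0.15). CML18 had the lowest mean of the list, −0.99 (block SE 0.42, adjusted p = 0.399 with the block), which rested mainly on replicate 1 at −2.89, where the GA4 signal of 3.74 log2 units was far below the filter level. CML49 stood at −0.43, with 0.05 in replicates 3 and 4 and −0.90 in replicates 1 and 2. CML41, CML14, CML46 and CML27 were at −0.38, −0.31, −0.22 and −0.20, and CML43 and CML48 at 0.55 and 0.48, with signs that changed between numbers. CML43 averaged 6.71 log2 units in water, under the filter level, so the size of its difference is uncertain. CML10, CML13, CML26, CML36, CML42 and CML50 lay between −0.08 and 0.19. CML37 and CML39, close relatives of CML38, and CML40 were too dim to be tested, with mean log2 signals of 4.42, 4.30 and 4.73 in GA4 and 3.91, 4.89 and 6.09 in water, so they give no comparison with it.

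Of 5 relatives of AT4G28240 in the wound-responsive family, 2 were tested and neither passed. AT4G10270 had log2 signals of 7.90, 8.24, 6.92 and 6.10 on GA4 replicates 1 to 4, against 9.35, 8.74, 7.09 and 6.97 on water replicates 1 to 4. It was lower in GA4 in 4 of 4 numbers (mean −0.75, block SE 0.22, adjusted p = 0.229 with the block by limma), but its level across the sets was opposite to that of AT4G28240, with a set difference of −1.79. AT4G05070 was at −0.24 (block SE 0.14), with −0.02 in replicates 3 and 4 and −0.46 in replicates 1 and 2. Of 35 jasmonate genes only OPCL1, an enzyme of jasmonate synthesis, was tested, at −0.31 (block SE 0.17), with −0.98 in replicate 1 and 0.12 in replicate 2.

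Levels that moved with the replicate number were common among these genes too. Of the 24, 16 (66.7%) passed the F test among replicate numbers, against 36.3% of all tested, and 15 (62.5%) had the higher level on replicates 3 and 4, compared with 39.3% of the whole table. The median set difference of the 24 was 0.34, against −0.14 for all tested. The share of 39.3% depends on the scaling, since quantile normalization moved the median of all tested to −0.01. Beside CML18 and CML43, WRKY6, CML41, CML46, CML48 and AT4G10270 had 1 or 2 arrays under the filter level, where a difference within a number is uncertain.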

How the data were processed

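Total RNA from 8 shoot samples was labelled with biotin and hybridised to Affymetrix ATH1 arrays, per the labels' protocols. The deposited values are linear intensities, 1 for each probe set on each array, which the authors made with MAS5, per the submitters' processing notes. The deposited values hold no detection calls. The 64 control probe sets were set aside, values under 1 (703 of 181968) were set to 1, and log2 was taken of the deposited intensity. No rescaling was applied. The 60% of 22746 probe sets with the highest mean were tested with limma 3.58.1 in R 4.3.3 (lmFit, eBayes with trend, 2-sided, Benjamini-Hochberg over 13648, threshold 0.05). Of the 22746, 13513 had 1 gene in the platform annotation, 503 several and 8730 none, and names were updated through the TAIR10.1 gene table (13436 matched). The annotation names no genome build, so no positions are given.

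The GA4 against water fit had no block, and a fit with a replicate block (the replicate number as a term) was the alternative. Arrays of the same number correlated at 0.616 to 0.685 in deviations from group means (all above 0.1), which counts as paired, although arrays of different number within a replicate set also exceeded 0.1. The numbers come from the sample titles, which do not say what they mark. The F test used treatment plus replicate number. The test between sets used treatment, replicate set and the interaction of these, without the replicate number. Both tests are orthogonal to the mean GA4 effect. The code was tested on simulated data. Named were the 3 genes, every tested gene of the 5 lists, and the 5 single-gene probe sets most like each gene. The members, lists and tests were chosen with earlier results of these data known. The 4 arrays per group limit the precision, and p-values measure only the spread between these samples.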

Additional observations from a re-analysis of the deposited data

How the results depend on the processing

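The number of probe sets called for GA4 against water was 2 without a block. It was 40 with the replicate block, 32 with the replicate set as a block, 1 without a filter, 1 among the 40% with the highest mean and 1 when any 1 of the 8 arrays was left out. With the block it was 8 to 53 when 1 replicate number was left out, 8 without replicate 2 and 14 without replicate 1, and 20 after quantile normalization. None of the 24 genes of the lists passed in any of these fits. Of 350 values of these 24 genes under alternatives, 332 kept their sign and 18, in 8 genes, changed sign without passing. No paired value is given for the 3 genes beyond their differences by number, since they carry no test of GA4 against water.

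Leaving out 1 array makes the replicate sets unequal between the treatments. The mean differences then ran from −0.73 (without GA4 replicate 3) to −0.21 (without water replicate 3) for ZAT10, from −1.004 (without water replicate 2) to −0.22 (without GA4 replicate 2) for CML38, and from −1.56 to −1.05 for AT4G28240. Leaving out both arrays of a number, chosen after seeing the data, gave −0.49 to −0.43, −0.84 to −0.54 and −1.37 to −1.22. Quantile normalization gave −0.44, −0.77 and −1.26, and set differences of 1.27, 1.74 and 0.98 in the same order. The set difference of CML38 was 1.01 without replicate 2 and 1.91 without replicate 1. The F test among replicate numbers passed for each of the 3 genes under its 6 alternatives, with the highest adjusted p of 0.0141 for CML38 without replicate 2 (limma). Low signal limits CML38 in GA4 replicate 2.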
